A study of Mus musculus with 12 samples.

Results

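The MHC class II genes of the panel and their regulator Ciita were followed across 12 mouse melanomas that had been injected with interleukin-2 and interleukin-12 or with saline. The set holds 9 genes chosen by name, of 750 gene probes in all: H2-Aa, H2-Ab1, H2-Eb1, Cd74, H2-Dma, H2-DMb1, H2-DMb2, H2-Ob and Ciita. All 9 lay above background in each of the 12 tumors, all 9 passed the filter on low counts, and all entered the tests among 729 genes. RNA came from formalin-fixed, paraffin-embedded flank tumors of C57BL/6 mice and was counted with bar-coded nCounter probes, without amplification. Every tumor grew from B16F10, a single mouse melanoma line of C57BL/6 origin, and every tumor was first injected 6 days after implantation. The cytokines were fused to a collagen-binding protein that is meant to hold them in the tumor matrix.

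The 12 mice were split into 4 groups of 3. Saline tumors were injected with saline and removed 2 days later. Early single-dose tumors had 1 dose of both cytokines and were removed 2 days later. Late single-dose tumors had 1 dose and were removed 8 days later. Repeat-dose tumors had 2 doses, with 6 days between them, and were removed 8 days after the first dose and 2 days after the last. The study's design text counts 4 animals in the repeat-dose group, and 3 are analysed here. Early single-dose and saline tumors had the same age, as had repeat-dose and late single-dose tumors. Saline tumors of the later age were not analysed here, and all comparisons with saline share the same 3 saline tumors. In any comparison of the older tumors with saline the treatment and the age of the tumor cannot be told apart.

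MHC class II molecules display peptides from engulfed or internal proteins to CD4 T cells. In C57BL/6 mice the surface molecule is the I-A pair, whose alpha chain is encoded by H2-Aa and beta chain by H2-Ab1. H2-Eb1 encodes the beta chain of I-E, whose alpha chain is not made in this strain. Cd74 encodes the invariant chain, which fills the groove of new class II molecules and takes them to the endosome. There the H2-DM pair, encoded by H2-Dma with H2-DMb1 or H2-DMb2, removes the last piece of the invariant chain and helps peptides bind, and H2-DO, whose beta chain is encoded by H2-Ob, holds H2-DM in check and is best known from B cells. Ciita encodes the transactivator that switches on class II genes. It does not bind DNA itself but docks on factors bound to the W/S, X and Y boxes of class II promoters. Dendritic cells, macrophages and B cells make class II as a rule, and interferon-gamma can induce Ciita and class II in many other cells, in part through Irf1.

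Promoters of class II genes are known for the X and Y boxes on which the transactivator docks, and stretches with such letters are printed for that reason. RefSeq places 7 members on chromosome 17, among them all those printed here, and Ciita on chromosome 16. Of the members, 6 matched an entry among RefSeq promoter windows of build GRCm38.p6, each from 250 bases before to 50 bases after a gene start. H2-Ab1, Cd74 and Ciita are named only. Both window strands were searched for GATTGG, the letters of the Y box, for AACNNNTGA and for TGACGTCA, the full cyclic AMP response element. AACNNNTGA holds the letters shared by the X boxes of H2-Eb1, H2-DMb1, H2-DMb2 and H2-Ob. The letters for the X box were chosen after the members' promoters had been read, so their frequency among the members tests no enrichment. AACNNNTGA and TGACGTCA can share the bases TGA, and no match printed here did. The stretches below run 5′ to 3′ on the strand of the gene, have 66 bases each, end before the gene start and carry the matched letters in capitals, where the last match is the Y box.
H2-Aa, chr17:34287852-34287917, minus strand: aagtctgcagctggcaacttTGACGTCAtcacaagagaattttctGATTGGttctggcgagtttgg
H2-Eb1, chr17:34305762-34305827, plus strand: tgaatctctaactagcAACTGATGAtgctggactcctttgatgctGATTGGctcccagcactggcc
H2-DMb1, chr17:34153084-34153149, plus strand: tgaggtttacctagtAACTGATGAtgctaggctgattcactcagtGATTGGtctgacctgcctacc
H2-DMb2, chr17:34145113-34145178, plus strand: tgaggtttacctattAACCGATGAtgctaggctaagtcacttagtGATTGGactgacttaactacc
H2-Ob, chr17:34238802-34238867, plus strand: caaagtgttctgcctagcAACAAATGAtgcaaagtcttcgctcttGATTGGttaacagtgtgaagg

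In H2-Eb1, H2-DMb1, H2-DMb2 and H2-Ob the X-type match preceded the Y box with 29, 30, 30 and 27 bases between their first letters. The Y box began 60 bases before the gene start in H2-Eb1, 62 in H2-DMb1, 91 in H2-DMb2, 58 in H2-Ob and 49 in H2-Aa. H2-Aa held the cyclic AMP response element and had no match to AACNNNTGA. Its letters AAC and TGA stood closer together than that pattern requires, and the TGA was that of TGACGTCA. The missing match does not show that H2-Aa lacks an X box. H2-Dma had 2 windows in the table, and neither held the pair of matches. Of 32841 mouse promoter windows, 16.1% held GATTGG, 11.9% held AACNNNTGA and 1.79% held TGACGTCA. AACNNNTGA followed by GATTGG with first letters 10 to 45 bases apart was found in 48 windows, or 0.146%. The pair occurred in 4 members of the 6 with a window, and on the whole panel in 6 genes, the others being Casp8 and Tnfrsf9. The stretches of H2-DMb1 and H2-DMb2, which are neighbouring copies, were identical at 57 of 66 bases. H2-Ob carries the same pair of letters as H2-Eb1 and H2-DMb1 but differed from them in its measured levels, as given further on. A match describes letters and shows no binding.

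Gene probe totals ran from 392596 to 1232726 counts per tumor, and the background limit, the mean plus 2 SD of 8 negative probes, from 16.6 to 29.2 raw counts. Counts were scaled by the geometric mean of 20 housekeeping probes, and a scaled count is the raw count divided by that mean, relative to its geometric average over the tumors. The housekeeping mean was 2309 to 3034 in saline, 1246 to 2002 in early single-dose, 1217 to 1638 in the late single-dose and 530 to 1168 in the repeat-dose group (range of 3 each). With this scaling the median log2 fold change of all 729 genes against saline was 0.56 in early single-dose, 0.78 in the late single-dose and 1.19 in the repeat-dose group, so each member's change is also read against that median. Of 9 melanocyte and melanoma markers listed, the panel held S100b, with mean scaled counts of 678, 843, 1264 and 1619 in saline, early, late and repeat-dose tumors, and Mcam, with 2009, 1601, 1341 and 961. S100b passed as higher and Mcam as lower in repeat-dose tumors. H2-Ea-ps, the I-E alpha pseudogene of this strain, was below background in all 12 tumors, at 4 to 11 raw counts.

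Within 2 days of the first dose, RNA of 7 class II pathway genes stood above the saline level, and H2-DMb2 and H2-Ob did not pass the test. Ciita, both I-A chains, H2-Eb1, Cd74, H2-Dma and H2-DMb1 rose against saline of the same age, by 6.11-fold for H2-Ab1 to 12.6-fold for H2-Dma. That is 7 of 9 members past an adjusted p of 0.05 by edgeR's quasi-likelihood test, where 30.5% of all genes tested were called higher. The members' median log2 fold change was 2.92, beside 0.56 over all genes tested. In bulk tumor RNA, more cells that express class II and more class II RNA per cell cannot be told apart.

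Ciita, the transactivator, had scaled counts of 69.5, 33.7 and 20.8 in saline tumors A, B and C. They were 409.6, 448 and 314 in early single-dose, 241, 139.7 and 675 in late single-dose and 707, 689 and 489 in tumors with the repeat dose. Every treated tumor lay above every saline tumor. Raw counts of Ciita in saline tumors A, B and C were low, at 104, 59 and 41, beside background limits of 16.6, 27.0 and 20.6. The late single-dose tumors differed most among themselves, with the highest 4.83 times the lowest. Against saline, Ciita was higher by a log2 fold change of 3.24 ± 0.60 (SE, n = 3 per group, edgeR adjusted p = 0.0042) in early single-dose tumors.

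H2-Aa, the I-A alpha chain, measured 4696, 2415 and 514 scaled counts in saline tumors A, B and C. The values were 16273, 25675 and 16474 in early single-dose, 27840.3, 13387 and 54578 in late single-dose and 65571, 59092 and 51775 in repeat-dose tumors. Saline tumors were far apart, with the highest 9.14 times the lowest, yet the highest saline tumor stayed below the lowest treated one. The early single-dose rise had a log2 fold change of 2.94 ± 0.72 (SE, n = 3 per group, edgeR adjusted p = 0.0132).

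H2-Ab1, the I-A beta chain, followed the same order of tumors. It measured 3024, 1589 and 357 in saline, 8554, 12815 and 9020.3 in early single-dose, 16766, 7182 and 28669.5 in late single-dose and 39165, 30952 and 24979.6 in repeat-dose tumors. H2-Eb1, the I-E beta chain, measured 1982, 1043 and 228, then 5604, 8744 and 6644, then 10265, 4846 and 17011, then 23829, 19591 and 15568 in tumors A, B and C of the same groups. Both genes kept all treated tumors above all saline tumors. Against saline the early single-dose log2 fold change was 2.61 ± 0.69 for H2-Ab1 (SE, edgeR adjusted p = 0.0181) and 2.69 ± 0.68 for H2-Eb1 (SE, edgeR adjusted p = 0.0155).

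Cd74, the invariant chain gene on chromosome 18, counted 8137, 4079 and 1069.8 in saline and 27029, 44821 and 28877 in early single-dose tumors. It counted 46534, 22097 and 84779.5 in late single-dose and 111650.4, 95907 and 76313 in repeat-dose tumors. The tumor order was that of the I-A chains, with saline A the highest and saline C the lowest of its group, and late single-dose C the highest of its group. Cd74 rose by a log2 fold change of 2.92 ± 0.68 in early single-dose tumors (SE, edgeR adjusted p = 0.0111).

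H2-Dma, the alpha chain of the peptide editor, measured 411, 181 and 117 in saline tumors and 2768, 3891 and 2291 in early single-dose tumors. It measured 1990.2, 1097 and 5057 in late single-dose and 6542, 6160.2 and 5608 in repeat-dose tumors. Its early single-dose rise had the highest log2 fold change among the members, 3.66 ± 0.62 (SE, edgeR adjusted p = 0.00322). H2-DMb1, a beta chain of the editor, measured 217, 102 and 76.7 in saline and 1125, 1610.0 and 1089.9 in early single-dose tumors, a log2 fold change of 3.27 ± 0.48 (SE, edgeR adjusted p = 0.00316). In late single-dose tumors H2-DMb1 stood at 1077, 717 and 2114, and in repeat-dose tumors at 2248, 2309 and 2226, the last being within 1.04 times of each other.

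H2-DMb2, the other beta chain of the editor, was low throughout. It measured 64.8, 44.6 and 35.1 scaled counts in saline, 139, 169 and 100.1 in early single-dose, 104, 53.9 and 512 in late single-dose and 386, 413 and 369.6 in repeat-dose tumors. The early single-dose tumors all lay above the saline tumors, but the log2 fold change of 1.497 ± 0.67 did not pass the threshold (SE, 95% interval 0.01 to 2.99, edgeR adjusted p = 0.114). H2-DMb2 passed it in the fit without late single-dose tumor C, at an adjusted p of 0.00675, in the fit without late single-dose tumor B, at 0.0432, and in the fit of only the groups compared, at 0.0185. Its late single-dose tumor C stood 9.50 times above tumor B, the widest spread of any member within a treated group.

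H2-Ob, the beta chain of the editor's inhibitor, measured 66.8, 40.6 and 66.1 in saline and 104, 37.3 and 41.6 in early single-dose tumors. It measured 53.7, 60.9 and 113 in late single-dose and 108, 51.5 and 134 in repeat-dose tumors. Groups overlapped in every comparison. Its raw counts were 39 to 130, beside a background limit of up to 29.2. The early single-dose log2 fold change was 0.06 ± 0.49, with a 95% interval of -1.03 to 1.15 (SE, edgeR adjusted p = 0.965). That interval does not reach the fold changes of the 7 members that passed, and its sign turned under other scalings, which are given further on.

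**Figure D1:**
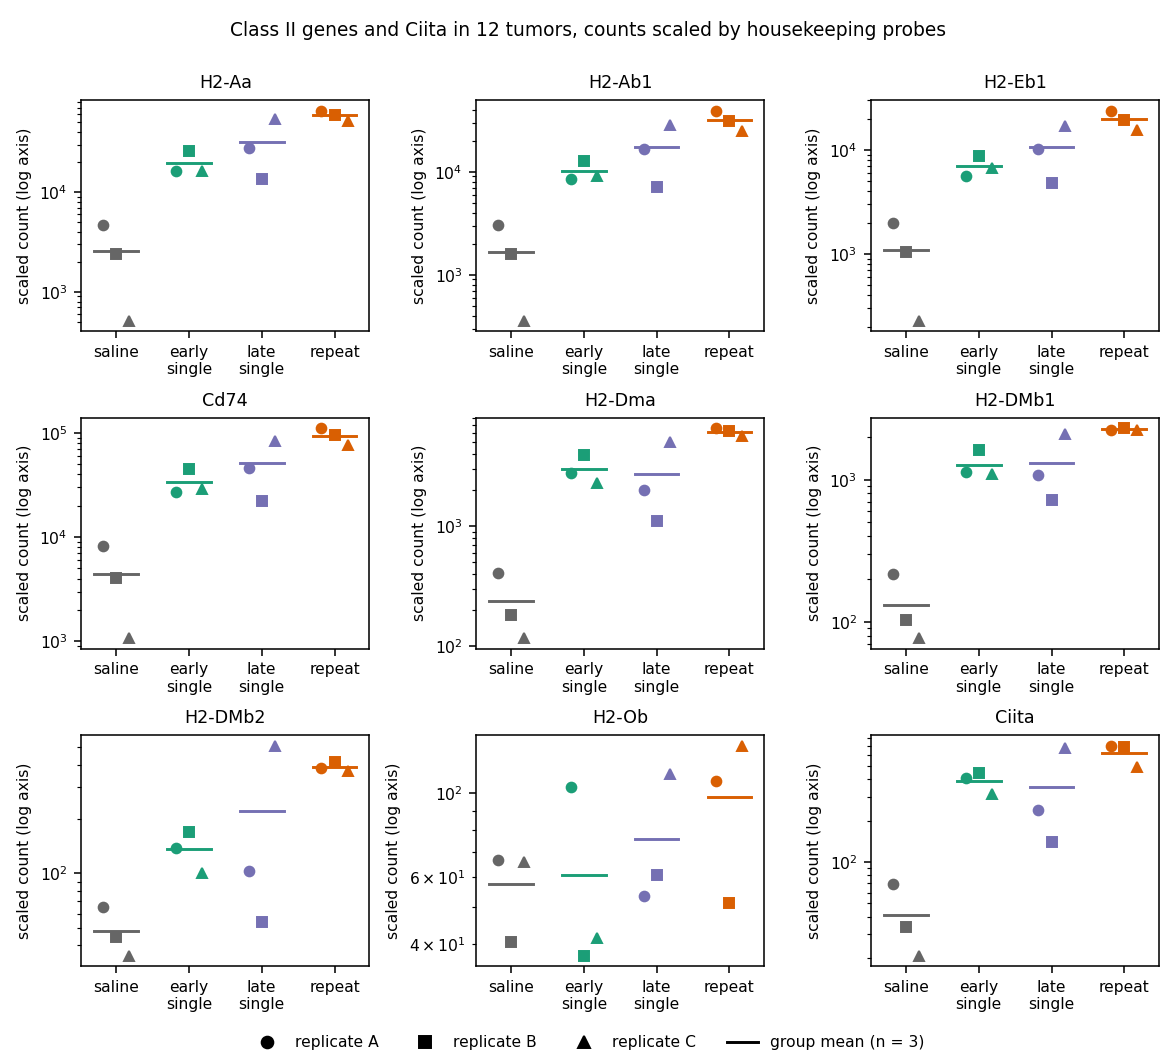
Scaled counts of the 9 members in 12 tumors, on log axes, with a panel per gene, a marker per replicate letter and a bar at each group mean (n = 3). Treated tumors lie above saline tumors for every member but H2-Ob and, in late single-dose tumors, H2-DMb2.

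All 3 early single-dose tumors lay above all 3 saline tumors for 8 members, as they did for 49.9% of all genes tested. Leaving out saline tumor B left 3 members past the threshold, H2-Dma, H2-DMb1 and Ciita, with adjusted p-values from 0.0557 to 0.0784 for Cd74, H2-Aa, H2-Eb1 and H2-Ab1. Calls over all genes, in both directions, went from 227 to 89 in that fit. Without early single-dose tumor B, H2-Ab1 had an adjusted p of 0.0593. Without saline tumor A, the saline tumor with the highest class II level, 6 members had log2 fold changes of 3.38 to 4.32, over 1.5 times further from saline than with it. The direction of the 7 called members was the same in all of these fits.

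Late single-dose tumors, 8 days after 1 dose, still held class II RNA above the saline level. Of the 9 members, 8 passed the threshold in edgeR, where 39.1% of all genes were called higher, and the members' median log2 fold change was 3.30 beside 0.78 over all genes. H2-Aa had the highest log2 fold change, 3.65 ± 0.74 (SE, 95% interval 2.01 to 5.29, edgeR adjusted p = 0.007). Cd74 was higher by 3.53 ± 0.70 and H2-Dma by 3.52 ± 0.62 on the log2 scale (SE, edgeR adjusted p = 0.007 and 0.0069). Ciita was higher by 3.09 ± 0.60 (SE, edgeR adjusted p = 0.007). H2-Ob had a log2 fold change of 0.38 ± 0.49 (SE, edgeR adjusted p = 0.588).

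All 3 late single-dose tumors exceeded all 3 saline tumors for 7 members, against 42.5% of all genes tested. H2-DMb2 passed the threshold, at a log2 fold change of 2.21 ± 0.68 (SE, edgeR adjusted p = 0.0274), but tumor B at 53.9 lay below saline tumor A at 64.8. Without late single-dose tumor C its log2 fold change was 0.71, with an adjusted p of 0.187, and it also missed the threshold without saline tumor B or C, at 0.0909 and 0.0957. Without late single-dose tumor C the other called members kept their call, with H2-Aa at 3.02, H2-Dma at 2.71 and Ciita at 2.21. Calls over all genes in that fit numbered 107. Without saline tumor A, 6 members ran from 3.68 to 4.45. In a fit of late single-dose and saline tumors alone no member passed: 8 had an unadjusted p under 0.05, the smallest adjusted p was 0.0576, and none of all 729 genes was called.

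The late single-dose group was the most uneven of the treated groups for 8 of the 9 members. Tumor C had the highest level of all 9 members and tumor B the lowest of 8. Between them H2-Aa differed 4.08-fold, H2-Dma 4.61-fold, Ciita 4.83-fold and H2-DMb1 2.95-fold. In early single-dose tumors the same ratio of highest to lowest was 1.58 for H2-Aa, 1.70 for H2-Dma, 1.43 for Ciita and 1.48 for H2-DMb1. Housekeeping means of late single-dose tumors A, B and C were 1638, 1545 and 1217.

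Repeat-dose tumors had the highest group mean of each member. The means were 58813 ± 6902 for H2-Aa, 94623 ± 17704 for Cd74, 6103 ± 469 for H2-Dma and 628 ± 121 for Ciita (scaled count, SD, n = 3). Against saline, 8 members passed, all but H2-Ob, where 59.4% of all genes were called higher. Log2 fold changes of the 8 ran from 3.02 for H2-DMb2 (SE 0.70, edgeR adjusted p = 0.004) to 4.69 for H2-Dma (SE 0.65, edgeR adjusted p = 0.00077), and the median over the 9 was 4.18 beside 1.19 over all genes. Ciita was higher by 3.93 ± 0.62 (SE, edgeR adjusted p = 0.000869). H2-Ob was at 0.74 ± 0.50 (SE, edgeR adjusted p = 0.226). For 8 members all repeat-dose tumors lay above all saline tumors, as for 64.1% of all genes tested. In each fit that left out 1 tumor the same number of members, 8, passed. Without saline tumor A, 6 members had log2 fold changes of 4.52 to 5.36.

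**Figure D2:**
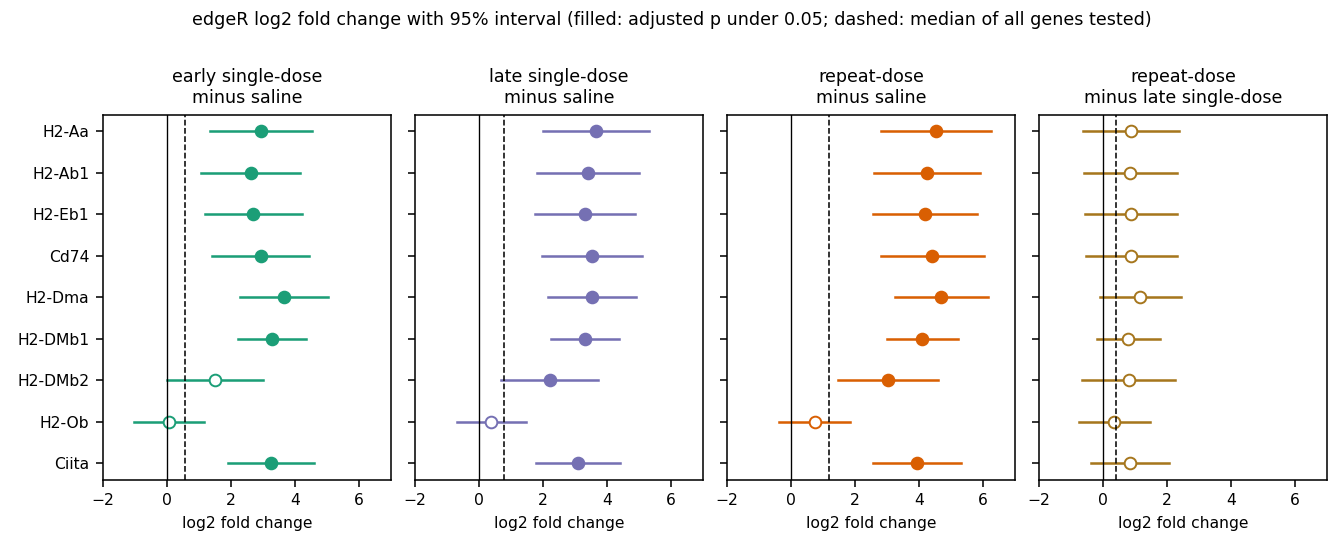
edgeR log2 fold changes of the 9 members with 95% intervals in 4 comparisons, filled where the adjusted p was under 0.05, with a dashed line at the median of all genes tested. In the early single-dose group the intervals of 8 members lie above 0, that of H2-DMb2 barely and unfilled, while every interval of repeat-dose minus late single-dose tumors takes in 0.

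The comparison of repeat-dose with late single-dose tumors, both 8 days after the first dose, asks what the second dose added. All 9 members had higher group means after the second dose, H2-Ob with this scaling but not by TMM, the total count or the positive controls, yet none passed the threshold in edgeR, where 0% of all genes tested did. No member had an unadjusted p under 0.05, and 77 of all genes did. DESeq2 also called none of the members, and its calls among all genes numbered 10 with default size factors and 3 with those of the housekeeping probes, while limma called 0. Log2 fold changes ran from 0.36 ± 0.50 for H2-Ob to 1.17 ± 0.57 for H2-Dma, with a median of 0.85 beside 0.41 over all genes. The 95% interval for H2-Dma was -0.09 to 2.42 and that for Ciita -0.38 to 2.06, so a rise of several fold and no rise are both within them. All 3 repeat-dose tumors lay above all 3 late single-dose tumors for H2-Dma and H2-DMb1, 2 of 9 members, where 10.7% of all genes did.

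A single tumor bore on this comparison. Late single-dose tumor C lay within or near the repeat-dose range, with 675 scaled counts of Ciita beside 489 to 707 and 54578 of H2-Aa beside 51775 to 65571. Without it, 3 members passed the threshold: H2-DMb2 at a log2 fold change of 2.31 (adjusted p = 0.0188), H2-Dma at 1.98 (adjusted p = 0.0386) and Ciita at 1.72 (adjusted p = 0.0419), all by edgeR. Calls over the whole panel went from 0 to 100 of 729 genes in the same fit.

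Repeat-dose against early single-dose tumors compares the time 2 days after the second dose with that 2 days after the first, in tumors of different age. None of the 9 members passed in edgeR, where 0% of all genes did, and 5 had an unadjusted p under 0.05, as had 176 of all genes. DESeq2 called no member with either set of size factors, and 57 and 79 of all genes, and limma called no member and 6 genes. Under scaling by the positive controls the sign turned for H2-Dma, H2-DMb1, H2-Ob and Ciita. H2-Ab1 had a log2 fold change of 1.65 ± 0.67 (SE, edgeR adjusted p = 0.186), H2-Aa 1.59 ± 0.68 (SE, edgeR adjusted p = 0.195) and Cd74 1.49 ± 0.65 (SE, edgeR adjusted p = 0.199). Ciita stood at 0.69 ± 0.55 and H2-DMb1 at 0.83 ± 0.44 (SE, edgeR adjusted p = 0.428 and 0.27). In a fit of these groups alone 7 members passed, with adjusted p-values of 0.0188 to 0.0463, all but H2-Ob and Ciita, among 83 of all genes. Without late single-dose tumor C, H2-DMb2 passed, at an adjusted p of 0.0342, among 49 genes called.

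Late against early single-dose tumors compares 8 with 2 days after 1 dose. edgeR called no member and 0% of all genes, with no member and 57 genes at an unadjusted p under 0.05. DESeq2 called no member, and its calls among all genes numbered 57 with default and 24 with housekeeping size factors, while limma called 0. The log2 fold changes were 0.71 for H2-Aa, 0.79 for H2-Ab1, 0.61 for H2-Eb1 and 0.61 for Cd74, and -0.14 for H2-Dma, 0.03 for H2-DMb1 and -0.15 for Ciita (SE 0.44 to 0.67, edgeR adjusted p = 0.882 to 0.998). H2-DMb2 stood at 0.71. Without late single-dose tumor C the values were -0.95 for H2-Dma, -0.51 for H2-DMb1, -0.78 for H2-DMb2 and -1.03 for Ciita, still with no call. With 1 tumor left out at a time, the lowest values were 0.08 for H2-Aa, 0.24 for H2-Ab1, 0.11 for H2-Eb1 and 0.03 for Cd74.

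The test of the difference of effects set the change after the second dose against the change after the first. For 8 members the first difference was the larger. The log2 difference was -2.49 ± 0.80 for H2-Dma, -2.48 ± 0.63 for H2-DMb1, -2.40 ± 0.79 for Ciita and -2.03 ± 0.91 for Cd74 (SE). None passed in edgeR (adjusted p = 0.339, 0.327, 0.339 and 0.441), where 0% of all genes did, and these 4 members and 79 of all genes had an unadjusted p under 0.05. DESeq2 called 3 of them, H2-Dma, H2-DMb1 and Ciita, with default size factors, and H2-Dma and H2-DMb1 with those of the housekeeping probes, while limma called 0 genes. DESeq2's calls over all genes numbered 37 and 18. edgeR called H2-DMb1 after scaling by the total count, at an adjusted p of 0.0429 among 5 genes called, and without saline tumor A, at 0.0393 among 7. The median of this difference was -2.03 over the members and -0.22 over all genes. In the test over all 4 groups at once, 8 of 9 members passed, with edgeR adjusted p-values of 0.00467 to 0.0228, as did 48.8% of all genes tested, and H2-Ob had an adjusted p of 0.573.

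Ratios of 2 probes within a tumor do not depend on how the sample was scaled. Probes differ in how well they capture their target, so only changes of a ratio between tumors are read. Relative to Cd74, the I-A chains and H2-Eb1 were steady. Over the 12 tumors the ratio of H2-Aa to Cd74 spanned 1.41-fold, that of H2-Ab1 1.36-fold and that of H2-Eb1 1.31-fold, while Cd74 itself went from 1069.8 to 111650.4 scaled counts. The ratio spanned 2.55-fold for H2-Dma, 3.56-fold for H2-DMb1, 3.76-fold for Ciita, 14.7-fold for H2-DMb2 and 115-fold for H2-Ob. Saline tumor C, the tumor with the lowest Cd74, held the highest ratio to Cd74 of H2-Dma, H2-DMb1, H2-DMb2, H2-Ob and Ciita. The raw count of Ciita in that tumor was 41, beside a negative probe mean of 11.6.

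The log2 ratio of Ciita to Cd74 was -6.87, -6.92 and -5.68 in saline tumors A, B and C. It was -6.04, -6.65 and -6.52 in early single-dose, -7.59, -7.31 and -6.97 in late single-dose and -7.30, -7.12 and -7.29 in repeat-dose tumors. The 3 values of each older group lay below the 3 early single-dose values. From early to late single-dose tumors the mean of the ratio changed by -0.89 for Ciita, -0.83 for H2-Dma and -0.53 for H2-DMb1, and by 0.08 for H2-Aa and 0.02 for H2-Eb1, values given without a test. Between early single-dose and saline tumors Ciita and Cd74 differed in their log2 change by 0.09 (exact permutation test, two-sided, p = 0.9), and between repeat-dose and late single-dose tumors by 0.05 (exact p = 0.8). The sign of both differences turned when single tumors were left out, over ranges of -0.13 to 0.49 and -0.10 to 0.21.

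H2-Ob and H2-DMb2 moved away from Cd74. The log2 ratio of H2-Ob to Cd74 was -6.93, -6.65 and -4.02 in saline and -8.02, -10.23 and -9.44 in early single-dose tumors, a difference of -3.37. For H2-DMb2 it was -6.97, -6.52 and -4.93 in saline and -7.61, -8.05 and -8.17 in early single-dose tumors, a difference of -1.80. In both cases the 3 early single-dose tumors lay below the 3 saline tumors, with an exact two-sided permutation p of 0.1, the smallest that 3 against 3 can give, and 0.3 after adjustment over the 6 ratio tests. Between repeat-dose and late single-dose tumors the difference was -0.74 for H2-Ob and 0.38 for H2-DMb2 (exact permutation p = 0.4 each). Without saline tumor C the early single-dose differences were -2.44 for H2-Ob and -1.20 for H2-DMb2.

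The 2 beta chains of the editor, H2-DMb1 and H2-DMb2, also differed from each other. The log2 ratio of H2-DMb2 to H2-DMb1 was -1.36 ± 0.34 in saline, -3.24 ± 0.21 in early single-dose, -3.05 ± 0.89 in the late single-dose and -2.54 ± 0.05 in the repeat-dose group (SD, n = 3). The late single-dose value was -3.38, -3.73 and -2.05 in tumors A, B and C. As near copies, they may share signal if a probe captures both, which was not tested.

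**Figure D3:**
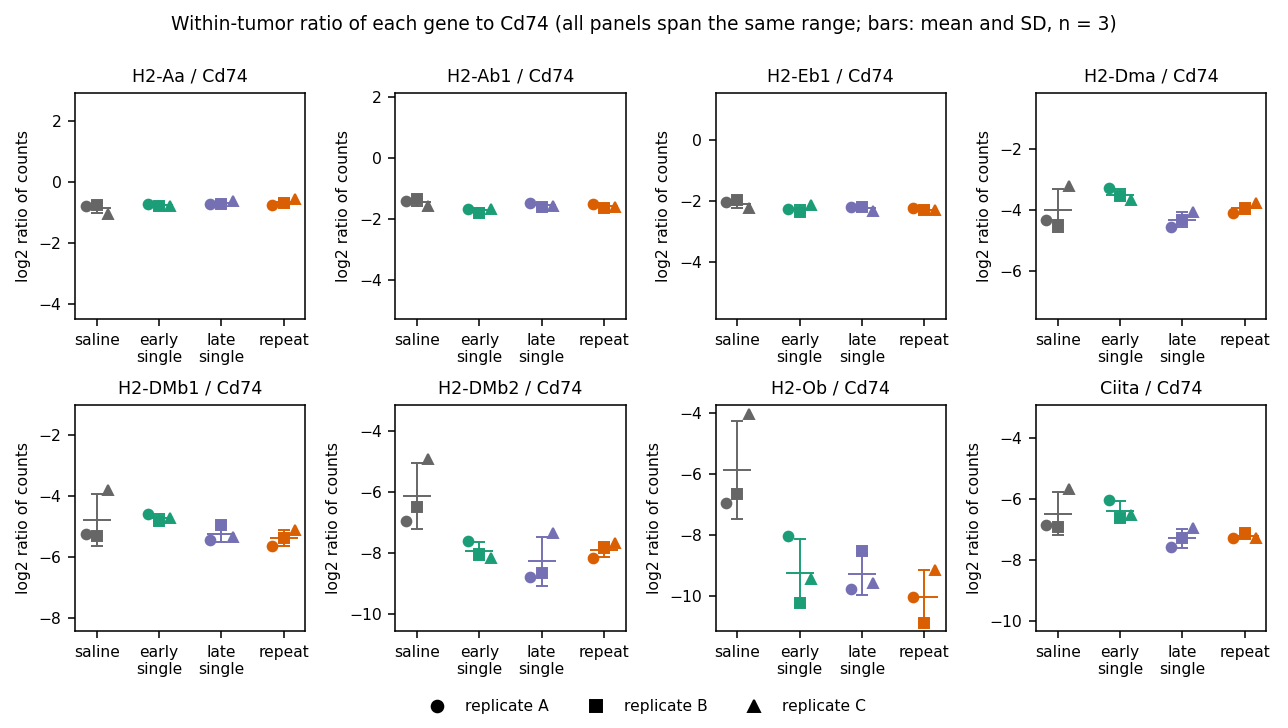
Log2 ratio of the counts of 8 members to those of Cd74 within each tumor, with a marker per replicate letter and bars at the group mean ± SD (n = 3), all panels spanning the same range. H2-Aa, H2-Ab1 and H2-Eb1 run level with Cd74 over all groups, Ciita and H2-Dma stand lower in late than in early single-dose tumors, and H2-Ob falls away from Cd74 in all treated groups.

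Across the 12 tumors the members were closely correlated, apart from H2-Ob. Pearson correlations of log2(scaled count + 1) among the other 8 members ran from 0.87 to 0.999 over 28 pairs, with a median of 0.97. The tumors share their group and their scaling, which raises such values. After the group means were taken out the 28 pairs ran from 0.64 to 0.998, with a median of 0.90. H2-Ob correlated with the other 8 at 0.31 to 0.52 over the tumors and at -0.02 to 0.37 after the group means were taken out. Closeness to Ciita was not particular to the members. By likeness to Ciita over the tumors, Cd74 ranked 52 among all genes, H2-Aa 62, H2-Eb1 74, H2-Ab1 79 and H2-DMb2 208. H2-Dma and H2-DMb1 ranked 3 and 20. These are descriptions over 12 tumors, with no test.

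Among all genes tested, those most like Cd74 were H2-Aa, H2-Eb1 and H2-Ab1 (r = 0.998 to 0.999), then H2-D1, a class I heavy chain, and Slamf7, a receptor of leukocytes (r = 0.991 and 0.989). After the group means were taken out H2-Ab1, H2-Aa and H2-Eb1 came first again (r = 0.995 to 0.997), followed by Slamf7 and Ptprc, the pan-leukocyte marker CD45 (r = 0.976 each). Those most like Ciita were Irf1, a transcription factor induced by interferon-gamma, Gbp5, an interferon-induced GTPase, H2-Dma, the peptide transporter chain Tap2 and Irf8, a transcription factor of myeloid cells (r = 0.994 to 0.996). After the group means were taken out Irf1 was again first (r = 0.993), followed by the complement gene C4b, the nonclassical class I genes H2-M3 and H2-T23, and Stat3. H2-Dma was then at rank 6 (r = 0.981) and H2-Aa at rank 100 (r = 0.878). The genes most like H2-Ob were Cd1d2, Itgae, Masp2, Hras and Trem1 (r = 0.962 to 0.972), all with low counts of 18 to 157 in any tumor, where the scaling factor of a tumor is shared.

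**Figure D4:**
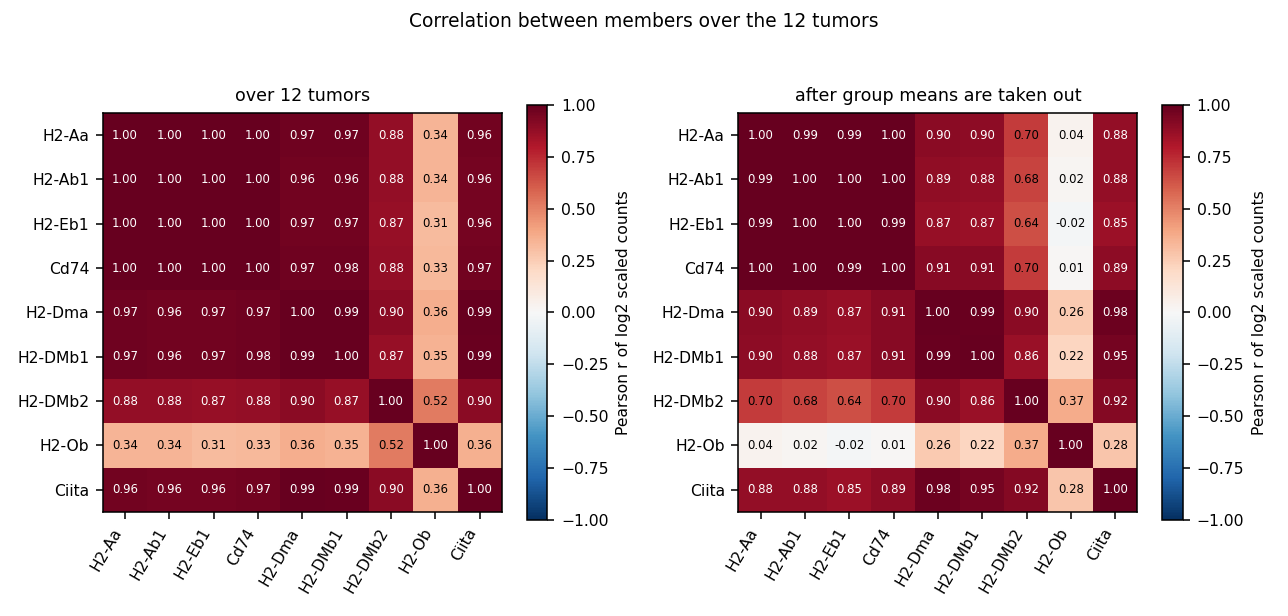
Pearson correlations of log2 scaled counts between the 9 members over the 12 tumors, as measured on the left and after the group means were taken out on the right. H2-Ob stands apart in both. After the group means were taken out the I-A, I-E and Cd74 genes form 1 block and H2-Dma, H2-DMb1 and Ciita another. H2-DMb2 is nearer the second block (r = 0.86 to 0.92) than the first (r = 0.64 to 0.70). The blocks are not sharply apart, with r = 0.91 between Cd74 and H2-Dma.

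Genes of the interferon-gamma signal, which is known to induce Ciita, were listed together with genes that the signal induces, such as Socs1 and Gbp5. Of 13 genes listed for the interferon-gamma signal the panel held 12. Of these, 10, 11 and 12 rose against saline in the early single-dose, late single-dose and repeat-dose groups. By TMM 9 rose in each. Counts of this and the following lists stand beside 30.5%, 39.1% and 59.4% of all genes called higher in the same groups with the housekeeping scaling. Ifng, the cytokine itself, had mean scaled counts of 23.4, 143, 103.0 and 513 in saline, early, late and repeat-dose tumors, and rose by a log2 fold change of 2.61 ± 0.56 in early single-dose tumors (SE, edgeR adjusted p = 0.00761). Irf1 rose by 3.02 ± 0.48 (log2, SE, edgeR adjusted p = 0.00316). Socs1, a feedback inhibitor of the pathway, rose by 3.41 ± 0.56 and Jak2, a kinase bound to the receptor, by 0.95 ± 0.29 (log2, SE, edgeR adjusted p = 0.00316 and 0.0336). Ifngr1, the receptor, at 0.78 ± 0.31, and Jak1, the other kinase, at 0.55 ± 0.25, did not pass in early single-dose tumors (log2, SE, edgeR adjusted p = 0.0799 and 0.114).

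Of 15 transcription factors listed for class II the panel held 7. Of these, 5, 5 and 6 rose in the 3 treated groups, taken in the same order, and 5, 4 and 4 by TMM. Irf8 rose by 3.24 ± 0.54 in early single-dose tumors (log2, SE, edgeR adjusted p = 0.00316), and Nlrc5, the relative of Ciita that acts on class I genes, by 2.71 ± 0.48 (log2, SE, edgeR adjusted p = 0.00342). Creb1, whose product binds the X box region, was at -0.35 ± 0.15 (log2, SE, edgeR adjusted p = 0.103) there and passed as lower by TMM. Of 10 class I presentation genes listed the panel held 9, with Nlrc5 itself among them. All 9 rose in each treated group, with a median log2 fold change against saline of 3.06, 2.64 and 3.51. From early to late single-dose tumors their median was -0.39, beside 0.61 for the class II members and 0.08 for all genes tested. No gene of either list passed the threshold there. The class II value leaned on single tumors, as Cd74, at 0.61, came as low as 0.03 with 1 tumor left out. Neither list's median was taken again with tumors left out.

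Most of the measured partners of class II in the endosome and at the cell surface did not pass in early single-dose tumors. Of 13 names listed the panel held 6, and of these 1 rose by then and 4 in each older group. By TMM 0, 2 and 4 rose, 3 had an unadjusted p under 0.05 in the early group and 2 fell in the repeat-dose group. With the housekeeping scaling the 1 was Ctsh, an endosomal protease, at a log2 fold change of 1.61 ± 0.55 (SE, edgeR adjusted p = 0.0473). Ctss, cathepsin S, which degrades the invariant chain, stood at 1.58 ± 0.61, and Ctsl, cathepsin L, at 0.76 ± 0.38 (log2, SE, edgeR adjusted p = 0.0703 and 0.158). Both rose in late single-dose tumors, by 2.73 ± 0.63 and 1.32 ± 0.39, and in repeat-dose tumors, by 3.66 ± 0.66 and 2.19 ± 0.40 (log2, SE, edgeR adjusted p = 0.0106, 0.023, 0.00127 and 0.00131). Lag3, an inhibitory receptor for class II on T cells, followed, with 0.95 ± 0.49, 1.71 ± 0.49 and 2.19 ± 0.50 (log2, SE, edgeR adjusted p = 0.167, 0.0216 and 0.00361). Cd4, the co-receptor that binds class II, had mean scaled counts of 84.8, 78.6, 124 and 109.5 in the 4 groups and did not pass in any comparison with saline with the housekeeping scaling, while by TMM it passed as lower in repeat-dose tumors.

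Of 8 costimulation genes of antigen-presenting cells, 0 passed in edgeR in early single-dose tumors, 1 had an unadjusted p under 0.05, and DESeq2 with either set of size factors and limma also called 0. Cd86 stood at 0.81 ± 0.35, Cd40 at 0.60 ± 0.42 and Cd80 at 0.41 ± 0.43 (log2, SE, edgeR adjusted p = 0.103, 0.329 and 0.55). These 3 rose in late single-dose tumors, by 1.32 ± 0.36, 1.65 ± 0.42 and 1.21 ± 0.44 (log2, SE, edgeR adjusted p = 0.0176, 0.016 and 0.0485), and in repeat-dose tumors, while by TMM 1 and 2 of the 8 rose there and 1 and 2 fell. Of 6 genes known to lower class II or Ciita, 1, 2 and 4 rose in the 3 treated groups, and by TMM 0, 0 and 1 rose and 1, 2 and 2 fell. With the housekeeping scaling the share that rose lay below or near that of all genes in each treated group. Prdm1, a repressor of Ciita in plasma cells, rose in each with the housekeeping scaling, by 1.10 ± 0.33, 1.25 ± 0.33 and 1.95 ± 0.34 (log2, SE, edgeR adjusted p = 0.0309, 0.0176 and 0.00109). Il10, a cytokine that lowers class II in macrophages, stood at 0.89 ± 0.43, 0.66 ± 0.43 and 1.49 ± 0.43 (log2, SE, edgeR adjusted p = 0.138, 0.258 and 0.0123) and lay above background in 8 of 12 tumors. The calls of the partner, costimulation, class II-lowering and cell marker lists changed with the scaling. All 9 measured genes of the class I list, Nlrc5 included, passed by TMM in every treated group.

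Markers of cells that carry class II moved along with it in part, and their share in the rise of the members was not tested. With the housekeeping scaling, the fraction of dendritic and of B cell markers called higher lay below that of all genes in every treated group. For macrophage and monocyte markers it lay below that of all genes in early single-dose tumors and above it in the older groups. The summed scaled count of 13 macrophage and monocyte markers was 1303 to 5379 in saline, 7550 to 14816 in early single-dose, 7419 to 19771 in the late single-dose and 13053 to 41904 in the repeat-dose group. Genes with high counts weigh most in this sum, with repeat-dose means of 5738 for Cd68, 3953 for Marco and 3113 for Emr1. In early single-dose tumors 3 of these 13 passed, Itgam, Marco and Msr1, in late single-dose tumors 9 and in repeat-dose tumors 13, and by TMM 3, 5 and 10. The sum of 11 dendritic cell markers was 572 to 969 in saline and 676 to 1096 in early single-dose tumors, then 1488 to 2868 and 1500 to 3783, with 0, 3 and 4 markers past the threshold in edgeR. In early single-dose tumors 0 of the 11 had an unadjusted p under 0.05, limma and DESeq2 with housekeeping size factors called 0, and DESeq2 with default size factors called 1, as lower. By TMM 0, 2 and 2 of the 11 rose and 0, 2 and 3 fell. Clec4n and Clec7a, lectin receptors that macrophages also carry, made up most of the sum in the older groups, with means of 110.5 and 172 in saline, 597 and 865 in the late single-dose and 874 and 1084 in the repeat-dose group. Itgax, CD11c, and Xcr1, of cross-presenting dendritic cells, rose in the repeat-dose group too, while Ccr7, Itgae, Lamp3, Ccl17, Ccl22, Cd207 and Flt3 did not pass in any treated group with this scaling. The sum of 14 B cell markers was 399 to 607, 476 to 984, 622 to 1024 and 649 to 1322 in the same order, with 1, 2 and 4 past the threshold as higher. By TMM 0, 0 and 1 of the 14 rose and 0, 0 and 3 fell. Several B cell markers were near background, with Blk above it in 3 of the 12 tumors, Tnfrsf13c and Fcer2a in 6 and Pou2af1 in 7. The background limit, scaled like the counts, was 10.5 to 15.4 in saline and 37.1 to 54.9 in repeat-dose tumors. The part of background in the sum was not tested, so the sum is not read as a change in B cells. Btk, a kinase of B cells and myeloid cells, was the marker that passed in early single-dose tumors, and Ms4a1, a defining gene of B cells, had a log2 fold change of 0.13 there and lay above background in 11 of the 12 tumors. Ptprc had mean scaled counts of 164, 703, 788 and 1254 and rose by 2.10 ± 0.69 in early single-dose tumors (log2, SE, edgeR adjusted p = 0.0421).

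The way the counts were scaled set the size of the changes. Under TMM, the total count or the positive controls, which do not use the housekeeping probes, 7 members passed the threshold in early single-dose tumors, as many as with the housekeeping probes. The log2 fold change of Cd74 was then 2.37 by TMM, 2.01 by the total count and 2.67 by the positive controls, beside 2.92. That of Ciita was 2.66, 2.31 and 2.90, beside 3.24. H2-Ob turned, with log2 fold changes of -0.62, -0.92 and -0.50 in place of 0.06 and no call. In repeat-dose tumors H2-Ob was at -0.49, -0.87 and -0.87 against saline in place of 0.74, so no direction is given for it.

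**Figure D5:**
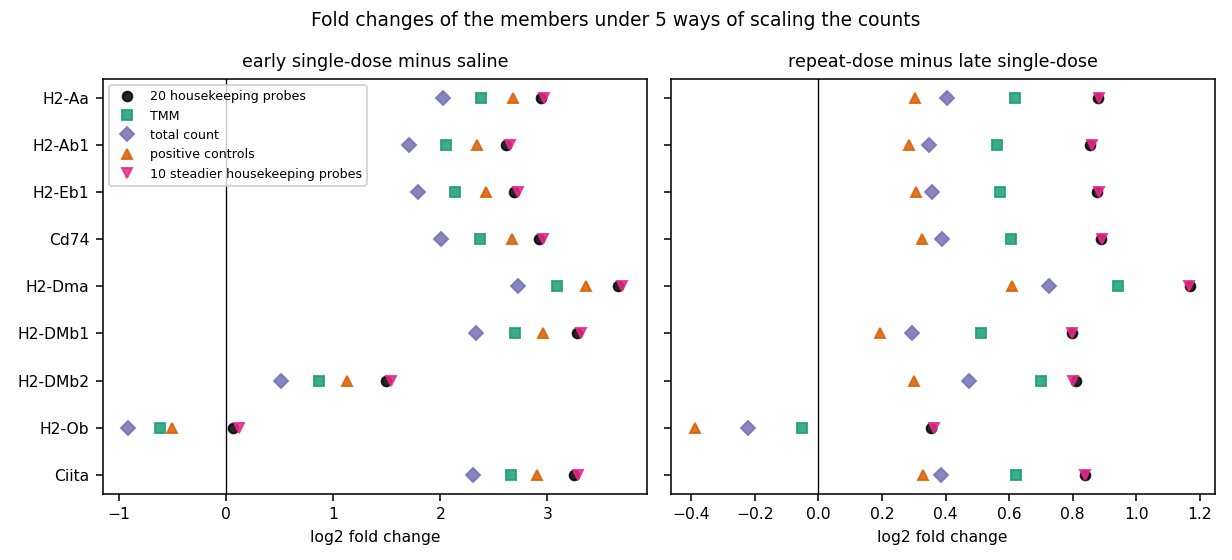
Log2 fold changes of the 9 members under 5 ways of scaling the counts, for early single-dose minus saline tumors on the left and repeat-dose minus late single-dose tumors on the right. The 7 members called in early single-dose tumors stay above 1.7 under all 5, while H2-Ob lies on either side of 0.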

How the data were processed

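Raw counts per probe were read from the deposited files of each sample, per the file headers. The deposited series table held signal that the authors had normalized, per the labels with nSolver (version not given in the sources used here). Its gene values were the raw counts times 1 factor per sample, within 0.00882 percent where the count was at least 100. The members and the gene lists were chosen with earlier results of these data known.

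Genes above the mean plus 2 SD of the 8 negative probes in at least 3 of 12 tumors were tested, 729 of 750. edgeR 4.0.16 (glmQLFit with robust estimation, glmQLFTest) in R 4.3.3 fitted the raw counts of all 12 tumors with 4 group means, and the geometric mean of 20 housekeeping probes set the library sizes. P-values were adjusted by Benjamini-Hochberg over all genes tested, with a threshold of 0.05. The fit was tested on simulated data. Replicates differed by far more than counting noise (chi-square over degrees of freedom, 24.2 to 154), and each counted once. Within-tumor ratios were compared by exact permutation (scipy 1.17.1, Python 3.11.15), adjusted over 6 tests.

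Named genes were the 9 members, genes fixed by name in each list, up to 3 more per list by the smallest p of the test over all groups, and the 5 genes most like Ciita, Cd74 and H2-Ob. Marker genes and Creb1 were chosen after their values were seen. Some named genes are not reported here. Promoters were RefSeq's for GRCm38.p6.

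Alternatives were TMM, total count, positive controls and the 10 steadier housekeeping probes as scalings, DESeq2 1.42.0 with default and housekeeping size factors, and limma 3.58.1 on log2(authors' value + 1). Others were no filter, a filter on all 12 tumors, subtraction of the negative mean, only the groups compared, the replicate block and each tumor left out in turn. The counts of the lists under other scalings were added after the data had been seen.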

Additional observations from a re-analysis of the deposited data

How the results depend on the processing

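Of the members' fold changes under all alternatives, 1416 kept their direction and their side of the threshold, 42 changed sign, 21 gained and 22 lost the call. Of the member counts, 181 stayed within 1.5 times and 9 did not. For H2-Ob, early single-dose minus saline was -0.62 by TMM, -0.92 by the total count, -0.50 by the positive controls, -0.67 by DESeq2 with default size factors, -0.048 by limma and -0.048 with the negative mean subtracted. For H2-Ob the first 4 of these settings gave -0.43, -0.65, -0.48 and -0.45 for late single-dose minus saline, -0.49, -0.87, -0.87 and -0.50 for repeat-dose minus saline, and -0.052, -0.22, -0.39 and -0.047 for repeat-dose minus late single-dose. For H2-DMb1, late minus early single-dose was -0.23, -0.074, -0.46 and -0.19 in the same settings, -0.092 by limma and -0.010 with the replicate block. Under positive controls, repeat-dose minus early single-dose was -0.037 for H2-Dma, -0.26 for H2-DMb1, -0.36 for H2-Ob and -0.30 for Ciita. The cause of these turns was not tested. By construction the scalings differ by a shift common to all genes, whose median for early single-dose minus saline was -0.08 by TMM, -0.43 by the total count and 0.13 by the positive controls. In fits of only the groups compared, 0 members passed for late single-dose minus saline and 7 for repeat-dose minus early single-dose. For the difference between the effects of the second and the first dose, the total count gave 1 member, DESeq2 3 with default and 2 with housekeeping size factors. Leaving out 1 tumor at a time moved the number called from 3 to 8 for early single-dose minus saline, from 0 to 3 for repeat-dose minus late single-dose, from 0 to 1 for repeat-dose minus early single-dose and from 0 to 1 for the difference of effects. It moved H2-Ob from -0.55 to 0.32 in early and from -0.014 to 0.58 in late single-dose tumors against saline. For late minus early single-dose the ranges were -0.95 to 0.24 for H2-Dma, -0.51 to 0.32 for H2-DMb1, -0.78 to 1.18 for H2-DMb2, -0.074 to 0.93 for H2-Ob and -1.03 to 0.23 for Ciita. The difference of effects ranged from -1.15 to 0.81 for H2-DMb2. The ratio of Ciita to Cd74 ranged from -0.13 to 0.49 in early single-dose minus saline and from -0.10 to 0.21 in repeat-dose minus late single-dose. With the replicate block, 7, 7 and 8 members passed against saline and 0 between treated groups. Deviations of tumors with the same letter correlated at -0.65 to 0.60. Tumors with different letters were not compared, so these values do not tell whether the letters pair tumors. With 3 tumors a group and 2 ages, small differences between treated groups were not detectable. H2-Ob, Ciita and H2-DMb2 had raw counts from 39, 41 and 54, near the background limit of up to 29.2. The lowest count of Ciita was in saline tumor C.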

Other observations

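Markers of cells that do not carry class II as a rule are given by group with the housekeeping scaling. The summed scaled count of 9 NK cell markers was 398 to 850 in saline, 5809 to 8925 in early single-dose, 1231 to 3661 in late single-dose and 4051 to 11876 in repeat-dose tumors. Gzma, a granule protease, made up most of it, with means of 74.4, 5339, 956 and 5445, while Klra1 had 49.4, 48.7, 45.9 and 53.1. Of these 9, 7, 6 and 7 rose against saline in edgeR, Ncr1, an activating receptor of NK cells, by a log2 fold change of 2.22 ± 0.39 in early single-dose tumors (SE, edgeR adjusted p = 0.00336). Of 11 T cell markers, 1, 6 and 7 rose, with sums of 457 to 924, 796 to 1049, 1134 to 2947 and 2083 to 2573. Of 7 neutrophil markers, 2, 4 and 4 rose. Over all genes 30.5%, 39.1% and 59.4% were called higher, and the T cell and neutrophil shares in repeat-dose tumors lie near the last of these. The part of these cells in the class II levels was not tested.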
